A study of Saccharomyces cerevisiae with 48 samples.

Results

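The regions described here are 453 bins of 1 kb in the budding yeast genome. In the mean of 2 strains each, they replicated late in *sml1∆* cells and early in *sml1∆ SSDDCS* cells. They are 4.11% of the 11018 eligible bins, out of 11338 bins in the files. They were chosen on relative copy number, r, the replicating to G1 ratio of a bin divided by the bulk ratio of its sample, so that 1.0 is the level of the whole genome at that time. A bin was late where its mean r at 20 and 25 min over the 2 *sml1∆* strains was at or below the 25th percentile of eligible bins, and early where its mean r at 15 and 20 min over the 2 *sml1∆ SSDDCS* strains was at least 1.0. Eligible bins had all 8 of these values and lay outside the regions of chromosomes X and VIII around the deleted origins, which hold 279 bins. The 453 bins were 16.4% of the 2755 late bins, and the other 2302 late bins, below called the bins that stayed late, served as the comparison.

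All strains were haploid W303 MATa with the alleles *ade2-1*, *ura3-1*, *can1-100* and *rad5-535* and a deletion of *SML1*, an inhibitor of dNTP synthesis, and were built on *his3*, *trp1* and *leu2* mutant loci. They were arrested in G1 with alpha factor, given galactose during the arrest and released into galactose. SSDDCS stands for galactose-driven over-expression, from the *GAL1-10* promoter, of 6 initiation factors: Cdc45 with Sld7 at *leu2*, SLD3-A with Dbf4-A (named as in the labels) at *his3*, and Dpb11 with Sld2 at *trp1*. It was present or absent in each of 2 origin-deletion backgrounds, *ars1008∆ ars1009∆* and *ars816∆ ars818∆*, which makes 4 strains, each followed in 1 time course of 11 timepoints from 5 to 60 min after release. Per the labels, the *SML1* deletion carried the HphNT marker in the *sml1∆ SSDDCS* strains (HphMX in the study's strain list) and *URA3* in the *sml1∆* strains. The study's strain list also gives the markers *LEU2*, *HIS3* and *TRP1* with the SSDDCS constructs, and lists none of them for the *sml1∆* strains. All these markers and SSDDCS cannot be told apart. No strain without an origin deletion was analysed here, and with 1 culture per strain the only replication of a contrast is between the backgrounds.

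Replication in budding yeast starts at short defined origins, the ARS elements, where the origin recognition complex loads the Mcm2-7 helicase in G1. Sld3, Sld7, Cdc45, Sld2, Dpb11 and Dbf4, the activator of the Dbf4-dependent kinase, turn the loaded helicase into active forks in S-phase, and because they are scarce they reach some origins first and others late or not at all. Regions near the telomeres and regions far from an active origin are known to replicate late, the former in part through Rif1 and Sir proteins.

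The longest runs of these bins lay at chromosome ends. Most of those runs held or adjoined an annotated origin, which a long run meets more often by its length alone. The 4 origin sequences below are examples that lie in, or overlap, 4 of the 10 longest runs, whose values are given further on. They are taken from the RefSeq R64 assembly of the S288C strain, plus strand, 5′ to 3′, with matches to the 11-letter ARS consensus sequence, on either strand, in capitals; the cells are W303 and may differ in sequence.

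ARS1405, chrXIV:28469-28700: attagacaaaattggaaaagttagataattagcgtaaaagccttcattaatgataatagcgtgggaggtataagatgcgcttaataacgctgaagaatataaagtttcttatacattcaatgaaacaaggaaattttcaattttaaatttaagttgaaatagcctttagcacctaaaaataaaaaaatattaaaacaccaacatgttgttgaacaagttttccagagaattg
ARS802, chrVIII:7702-7767: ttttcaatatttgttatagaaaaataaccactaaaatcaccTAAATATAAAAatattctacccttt
ARS609, chrVI:256277-256431: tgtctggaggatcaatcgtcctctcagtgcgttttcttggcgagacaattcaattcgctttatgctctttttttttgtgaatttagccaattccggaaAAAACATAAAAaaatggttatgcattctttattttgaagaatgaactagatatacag
ARS610, chrVI:269625-269924: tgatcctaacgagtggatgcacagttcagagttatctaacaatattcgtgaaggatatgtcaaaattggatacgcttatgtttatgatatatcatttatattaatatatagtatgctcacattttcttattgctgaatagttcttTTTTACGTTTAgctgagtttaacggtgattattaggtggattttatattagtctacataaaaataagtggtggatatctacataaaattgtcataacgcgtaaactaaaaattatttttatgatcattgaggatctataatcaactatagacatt

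ARS802, ARS609 and ARS610 each held 1 match to the full consensus, ARS802 and ARS609 on the minus strand, and ARS1405 held none. Such a match occurs in 124 of the 352 annotated origins (35.2%), and in 4 of the 10 origins in or within 2 kb of the 10 longest runs, the fourth being ARS1023. ARS601, ARS602, ARS801 and ARS1102 also lie in such runs, are not printed and held no match. For ARS610, 300 bases of the 619 annotated are printed. The annotation describes ARS609 as an origin that is used very late in S-phase and only in part of cell cycles.

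Several properties of the libraries bear on these bins. All 11 ratios of a strain share, per the file headers, that strain's own G1 sample as the denominator, and no read counts were used here, so depth is unknown. The 20 min library of the *sml1∆ ars1008∆ ars1009∆* strain stood apart, with an SD of r over eligible bins of 0.163 against 0.101 at 15 min and 0.129 at 25 min. In it 55.5% of late bins and 17.0% of all eligible bins had a lower ratio than at 15 min, although copy number cannot fall within an S-phase. The 20 min library of *sml1∆ SSDDCS ars1008∆ ars1009∆*, also used by the rule, had 29.5% of late bins below 15 min. In *sml1∆ SSDDCS ars816∆ ars818∆* it was 6.46%. Without the 20 min library of *sml1∆ ars1008∆ ars1009∆* the rule kept 549 bins, among them 406 of the 453 (89.6%).

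By construction the 453 bins had a late mean from 0.786 to 0.917 (median 0.892) in the *sml1∆* strains and an early mean from 1.00 to 1.28 (median 1.04) in the *sml1∆ SSDDCS* strains. These values chose the bins and are given as a description. At the late threshold of 0.917, the bins chrIV:238001-239000 and chrX:338001-339000 lay just inside, at 0.9168 each, and chrII:752001-753000 and chrII:581001-582000 just outside, at 0.9169 and 0.9170. At the early threshold, chrIV:269001-270000 and chrIV:829001-830000 lay just inside at 1.0001 each, and chrXVI:593001-594000 and chrVI:47001-48000 just outside at 0.9999 each. The highest early mean, 1.28, belonged to chrVIII:5001-6000, the bin that holds the left part of ARS801.

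Followed through S-phase, the median r of the 453 bins in the *sml1∆ SSDDCS ars1008∆ ars1009∆* strain was 1.01 at 5 min, 1.04 at 15 min, 1.06 at 20 min, 1.03 at 30 min and 1.02 at 35 min. In the *sml1∆ SSDDCS ars816∆ ars818∆* strain it was 1.01, 1.03, 1.046, 1.03 and 1.02 at the same times. The corresponding medians were 0.968, 0.9504, 0.854, 0.917 and 0.936 in *sml1∆ ars1008∆ ars1009∆*, and 0.973, 0.964, 0.934, 0.900 and 0.914 in *sml1∆ ars816∆ ars818∆*. The medians of both *sml1∆ SSDDCS* strains thus stayed above 1.0 at all 11 timepoints and those of both *sml1∆* strains below it, including at 5 min. The bins that stayed late had their lowest median with SSDDCS at 0.873, at 20 min in the *ars1008∆ ars1009∆* background, and at 0.894, at 25 min in the *ars816∆ ars818∆* background.

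**Figure D1:**
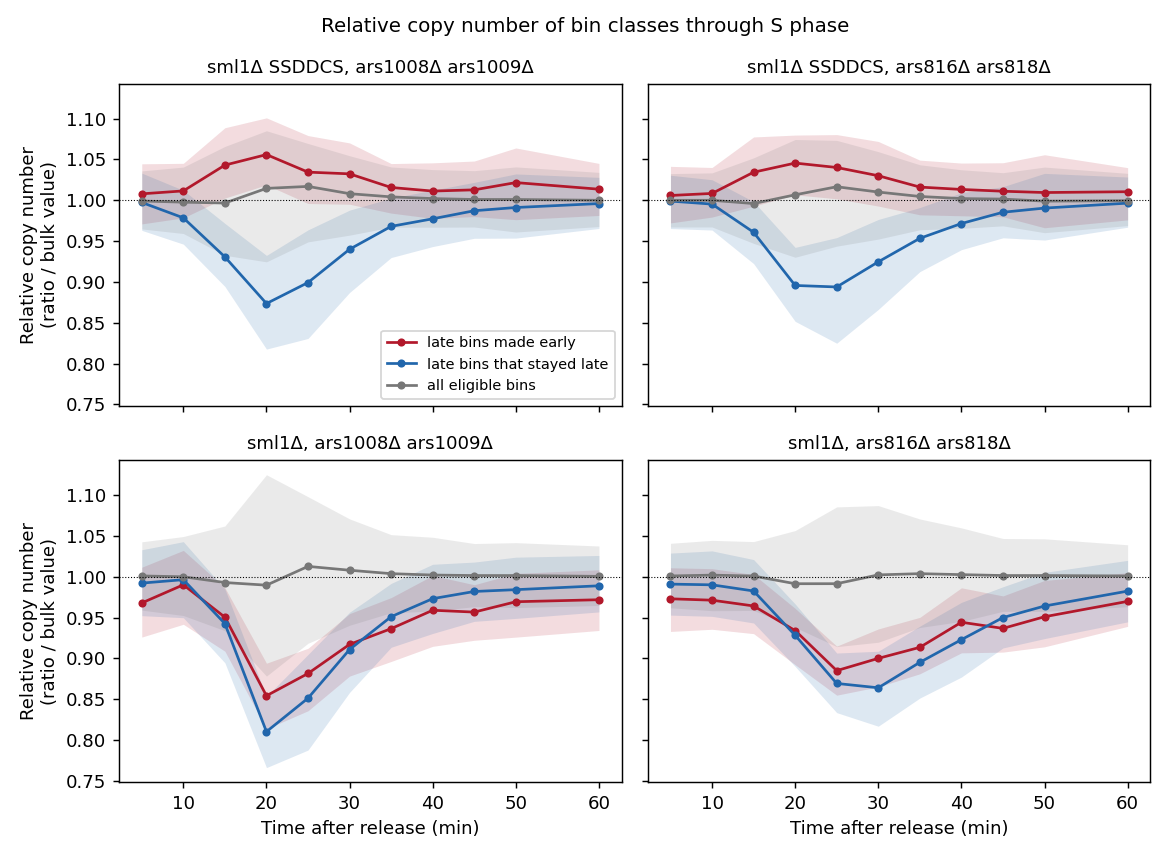
Relative copy number (ratio over bulk value) against time after release in minutes, 1 panel per strain. Lines are medians and bands the 25th to 75th percentile over the 453 late bins made early, the 2302 late bins that stayed late and the 11018 eligible bins; in both strains with SSDDCS the red line stays above 1.0 and the blue line dips below 0.90.

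In copies per G1 genome the same bins reached a median ratio of 1.55 at 15 min and 1.74 at 20 min in *sml1∆ SSDDCS ars1008∆ ars1009∆*, against 1.21 and 1.24 in the *sml1∆* strain of that background. In the *ars816∆ ars818∆* background the median ratio was 1.29 at 15 min and 1.56 at 20 min with SSDDCS, against 1.051 and 1.21 without. The *ars816∆ ars818∆* strains ran several minutes behind, with a bulk ratio of 1.25 against 1.48 at 15 min for the pair with SSDDCS, so timepoints are compared only within a background.

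The timepoints 30 and 35 min did not enter the rule, although they come from the same cultures. There the mean r of the 453 bins had a median of 1.02 in each *sml1∆ SSDDCS* strain, and of 0.927 and 0.906 in the *sml1∆* strains of the *ars1008∆ ars1009∆* and *ars816∆ ars818∆* backgrounds. The 2 strains with SSDDCS thus did not overlap the 2 without. The exact two-sided permutation test over the 4 strains gave p = 0.333 for the difference of 0.106 between the group means, which is the smallest p that this test can give with 2 strains against 2. Bin by bin, r was higher with SSDDCS in 423 of 453 bins (93.4%) in the *ars1008∆ ars1009∆* background and in 442 (97.6%) in the *ars816∆ ars818∆* background, where 49.8% and 50.6% of all eligible bins and 61.6% and 75.8% of the bins that stayed late were higher. In 389 of the 453 bins (85.9%) both strains with SSDDCS lay above both without, against 25.3% of all eligible bins and 41.9% of the bins that stayed late. Since the choice used neighbouring timepoints of the same contrast, nothing is read from these shares beyond the size of the remaining difference.

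Trep, the time at which the fitted sigmoid of a bin crosses a ratio of 1.5, had a median over the 453 bins of 28.1 min in *sml1∆ ars1008∆ ars1009∆* and of 14.5 min in its partner with SSDDCS. In the *ars816∆ ars818∆* background the medians were 29.8 and 19.4 min. In rank, the median of these bins came after 85.6% and 82.8% of eligible bins in the *sml1∆* strains and after 33.6% and 34.5% in the *sml1∆ SSDDCS* strains. The bins were therefore not at the very front of S-phase with SSDDCS but in the earlier part of it. The median advance was 13.4 min (SD over bins 3.99) and 10.2 min (SD 3.14), against 7.33 and 5.88 min for the bins that stayed late and 5.48 and 4.18 min for all eligible bins. With the timepoints of the rule left out of the fit, it was 12.3 and 9.82 min. Of the 453, 350 (77.3%) in the *ars1008∆ ars1009∆* background and 295 (65.1%) in the *ars816∆ ars818∆* background were advanced by over 5 min beyond the genome median, against 16.4% and 11.8% of eligible bins. Any advance above 0 was found in 453 and 452 of the 453, against 89.7% and 89.2% of eligible bins. The rule used this contrast, so these counts describe the bins and test nothing.

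The rule was also applied to each background alone, and the bins it chose there were looked up in the other background, whose strains had no part in that choice. The 453 bins themselves were chosen on the mean of both backgrounds, so these shares describe bins chosen in 1 background and not the 453. Of the 453, 286 met the rule in the *ars1008∆ ars1009∆* strains taken alone and 250 in the *ars816∆ ars818∆* strains taken alone. Only 129 of them met it in each background, so for most of the 453 the rule does not hold in both. Of 623 bins chosen in the *ars816∆ ars818∆* strains alone, 129 (20.7%) also met the rule in the *ars1008∆ ars1009∆* strains, where 4.87% of all eligible bins met it. Of 537 bins chosen in the *ars1008∆ ars1009∆* strains, the same 129 (24.02%) met it in the *ars816∆ ars818∆* strains, against 5.65% of all. Among bins late in the choosing background that did not turn early there, only 4.32% and 5.91% met the rule in the other background. The repeated share was thus several times the background share, although most of the chosen bins did not repeat. The loss came on both sides of the rule. The percentile makes 25% of eligible bins late in each background. Of the 623 bins, 41.7% were late again and 64.0% were early again, where 51.2% of all eligible bins were early. Of the 537 bins, 41.2% were late again and 62.6% were early again, where 48.8% of all were early. Among bins late in the choosing background that did not turn early there, 66.3% and 65.5% were late again. The chosen bins were thus late again less often than that comparison class, of which 10.3% and 10.7% were early in the other background. Within 50 kb of a chromosome end 39.9% of the bins chosen in the *ars816∆ ars818∆* strains met the rule again, against a local background of 18.0%, and elsewhere 13.9% against 3.28%. The opposite direction gave 30.2% against 13.7% near ends, and 19.9% against 4.68% elsewhere.

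The 453 bins also differed from their surroundings at the edges of the time course. Averaged over 5 and 60 min, when little or nearly all DNA is replicated, r with SSDDCS exceeded r without by a median of 0.0394 in these bins, by 0.0083 in the bins that stayed late and by about 0 (median -0.00045) over all eligible bins. The median difference was 0.0404 in the *ars1008∆ ars1009∆* background and 0.0372 in the other. In 374 of the 453 bins (82.6%) the offset averaged over the backgrounds was above 0, against 57.5% of the bins that stayed late and 49.6% of all eligible bins. At 5 min the bulk ratio was already 1.14 in *sml1∆ SSDDCS ars1008∆ ars1009∆* and 1.00 to 1.03 in the other 3 strains, so the 5 min value is not free of replication in that strain. The source of the offset was not tested.

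**Figure D2:**
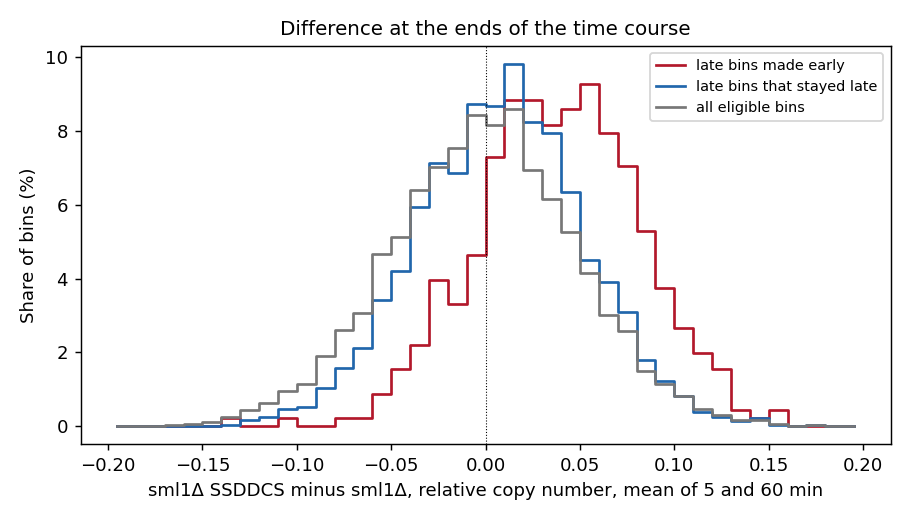
Difference in relative copy number between the strains with and without SSDDCS, averaged over 5 and 60 min and both backgrounds, against the share of bins in each class in percent. The late bins made early are shifted to the right, with a median of 0.0394 against 0.0083 for the late bins that stayed late.

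Dividing r by each strain's own mean at 5 and 60 min in the same bin removed this offset. With the divided values 190 of the 453 bins (41.9%) met the rule, and 370 bins met it in all. After the division 357 of the 453 kept an early mean of at least 1.0, while 259 kept a late mean at or below the 25th percentile. The median difference at 30 and 35 min went from 0.0962 to 0.0543 in the *ars1008∆ ars1009∆* background and from 0.118 to 0.0811 in the *ars816∆ ars818∆* background, and the median advance in Trep to 10.8 and 8.33 min. The share repeated across backgrounds was 22.6% and 26.2% with the divided values, against 4.09% and 4.75% of all eligible bins. Near chromosome ends 117 of 195 members (60.0%) met the rule after the division, and farther than 50 kb from an end 73 of 258 (28.3%).

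The distance to the nearest annotated origin separated the late bins that became early from those that did not. Of the late bins within 5 kb of an origin, 149 of 225 (66.2%) became early, and of those from 5 to 10 kb, 121 of 269 (45.0%). From 10 to 20 kb it was 96 of 829 (11.6%), and beyond 20 kb 87 of 1432 (6.08%). The median distance was 7.80 kb for the 453 bins, 22.1 kb for the bins that stayed late and 10.6 kb for all eligible bins. Only 21 late bins held an annotated origin, and 14 of them (66.7%) were among the 453. With the divided values the shares of late bins were 55.9%, 47.2%, 9.18% and 4.79% over the same 4 distances. The late bins within 5 kb of an origin were also less extreme without SSDDCS, with a median late mean of 0.892 against 0.858 beyond 20 kb, and the part of this in the result was not tested. Bins next to each other share forks and are not independent, so no p is given for these shares.

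**Figure D3:**
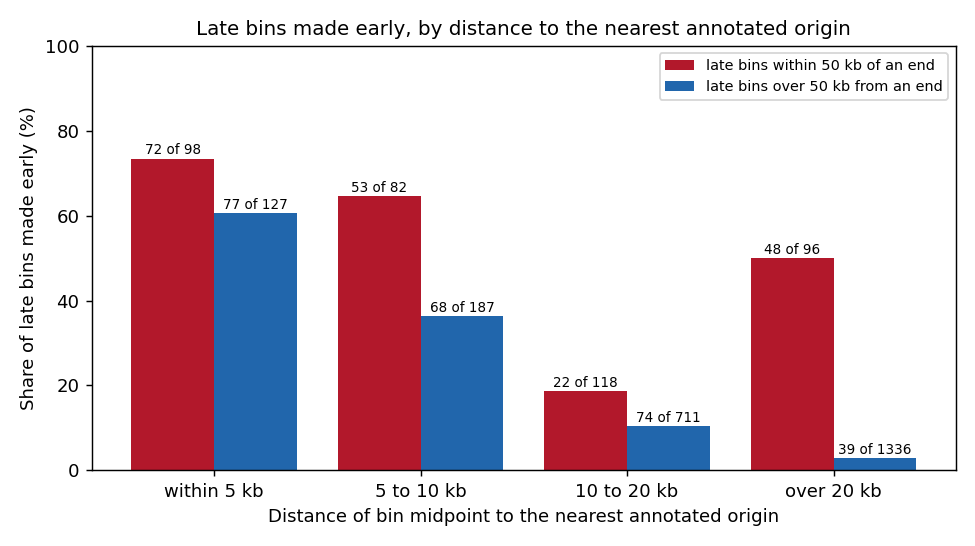
Share of late bins that became early with SSDDCS, in percent, against the distance of the bin midpoint to the nearest annotated origin, separately for late bins within and beyond 50 kb of a chromosome end; numbers give bins made early of late bins. Away from the ends the share falls from 60.6% within 5 kb to 2.92% beyond 20 kb, whereas near the ends 48 of 96 late bins beyond 20 kb became early.

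Chromosome ends went against this trend at long range. Farther than 50 kb from an end, the share made early fell from 60.6% within 5 kb of an origin to 36.4%, 10.4% and 2.92% at the longer distances. Within 50 kb of an end it was 73.5%, 64.6%, 18.6% and then 50.0% beyond 20 kb. Of those 48 end bins beyond 20 kb of an annotated origin, 14 lay on the left arm of chromosome VII, 11 on the left arm of XV and 8 on the right arm of IV.

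In all, 195 of the 453 bins (43.0%) lay within 50 kb of a chromosome end, as did 8.64% of the bins that stayed late and 10.8% of all eligible bins. The share of eligible bins that belonged to the 453 was 29.8% within 10 kb of an end, 23.1% from 10 to 20 kb, 20.4% from 20 to 30 kb and 15.4% from 30 to 40 kb. It dropped to 5.70% from 40 to 50 kb and stood at 2.34% beyond 200 kb. Of the late bins within 50 kb of an end 49.5% became early, and of those elsewhere 10.9%. Without the 20 min library of *sml1∆ ars1008∆ ars1009∆*, 38.6% of the bins kept lay within 50 kb of an end, and with the divided values 49.7% did.

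**Figure D4:**
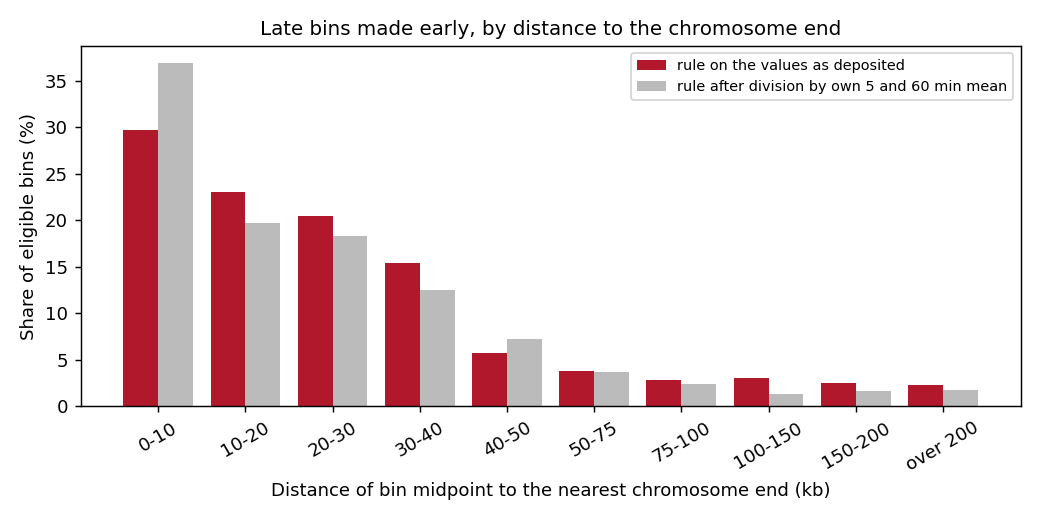
Share of eligible bins, in percent, that were late without and early with SSDDCS, against the distance to the nearest chromosome end in kb. Red bars use the values as deposited and grey bars the values divided by each strain's own mean at 5 and 60 min; with either, the share is highest in the outermost 10 kb (29.8% and 36.9%) and below 4% beyond 50 kb.

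The ends were unequal. At 25 of the 32 ends at least 1 of the 453 bins lay within 50 kb, and 8 ends with 10 or more held 110 of them. The left end of XIV had 21, the left end of VI 15, and the left end of VII and the right end of X 14 each. At 5 ends every late bin became early, namely the right end of X (14 bins), the left ends of XV (11) and XII (9) and the right ends of VIII and XIV (4 each). At the left end of VIII it was 8 of 28 late bins, and at the right end of VI 13 of 40. The other 7 ends had none of the 453. Of these, 5 had no late bin to begin with, the left end of XIII had 1 and the left end of III had 4. By chromosome, VI had the highest share of eligible bins among the 453 (36 of 249, 14.5%) and XIII the lowest (8 of 884, 0.905%). None lay within 20 kb of a centromere, where the files hold 615 eligible bins and 4 that stayed late.

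Joined over gaps of at most 1 bin, the 453 bins formed 245 segments. Of these, 154 were isolated bins, 51 had 2 bins, 27 had 3 or 4, and 13 had 5 or more, the last holding 108 bins (23.8%). The long segments differed from the isolated bins in where they lay. Of the bins in segments of 5 or more, 95.4% were within 50 kb of an end, and of the isolated bins 23.4%. They also differed in the offset at 5 and 60 min, with medians of 0.0227 and 0.0117 in the *ars1008∆ ars1009∆* and *ars816∆ ars818∆* backgrounds for the long segments and of 0.0443 and 0.0400 for isolated bins. With the divided values 72.2% of the bins in long segments met the rule, and 28.6% of the isolated bins. Of 299 bins next to an isolated bin, 24.1% were late and 52.8% early, near the 25% and 50.5% of all eligible bins. Of 21 bins next to the long segments, 33.3% were late and 66.7% early. By construction none of these neighbours was both. How much of the isolated bins is measurement noise was not tested.

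The 10 longest segments, with 93 bins, all had their centre within 50 kb of an end. In each of them the mean r at 30 and 35 min was higher with SSDDCS than without in both backgrounds, and 8 held an annotated origin or had one within 2 kb. Of all 245 segments 40 had an origin within 2 kb, and of the 154 isolated bins 18 did. A longer segment covers more sequence and so meets an origin more often, and nothing is read from the 8.

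The longest, chrXIV:16001-37000 on the left arm, had 18 of its 21 bins among the 453 and holds ARS1405. At 30 and 35 min its mean r was 1.02 (SD over 18 bins 0.0489) in *sml1∆ SSDDCS ars1008∆ ars1009∆*, 1.03 (SD 0.0514) in *sml1∆ SSDDCS ars816∆ ars818∆*, 0.902 (SD 0.0463) in *sml1∆ ars1008∆ ars1009∆* and 0.893 (SD 0.0419) in *sml1∆ ars816∆ ars818∆*. The difference between strains was 0.115 and 0.139 in the respective backgrounds. Its SD among the bins of the segment was 0.0501 and 0.0678, which does not measure the error between cultures. Its mean Trep was 14.7 and 19.2 min with SSDDCS and 29.7 and 30.1 min without, in the same order of backgrounds. The ratio in *sml1∆ SSDDCS ars1008∆ ars1009∆* passed from 1.15 at 5 min to 1.54 at 15 min and 1.75 at 20 min, whereas in its *sml1∆* partner it was 1.00, 1.23 and 1.24. Genes with their midpoint in these bins were *AAD14* (a putative aryl-alcohol dehydrogenase), *RPD3* (the histone deacetylase), *PEX6* (peroxisome biogenesis), *MDJ2* (a mitochondrial co-chaperone), *EGT2* (cell separation), *FIG4* (a phosphoinositide phosphatase), *LEM3* (a flippase subunit) and *VNX1* (a vacuolar cation exchanger). With the divided values 15 of the 18 bins met the rule.

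On chromosome X both arms carried a long segment. chrX:715001-729000, 14 bins with no gap, ended just before ARS1023 and held *DAL5* (allantoate permease), *PGU1* (a pectin-degrading enzyme) and *AAD10*. Its mean r at 30 and 35 min was 1.02 and 1.02 with SSDDCS against 0.951 and 0.924 without, and the SDs over bins reached 0.0795. chrX:26001-36000, with 9 bins, began just beyond ARS1004 and held *HXT8* (a hexose transporter) and *OPT1* (an oligopeptide transporter). There the values were 0.997 and 1.02 with SSDDCS against 0.911 and 0.897 without.

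Chromosome VI had 3 of the 10 segments. chrVI:27001-38000, around the overlapping ARS601 and ARS602, had 9 bins and held *ZNF1* (a zinc-cluster regulator) and *SWP82* (a SWI/SNF subunit). Its mean Trep was 13.2 and 18.5 min with SSDDCS and 26.6 and 30.3 min without. On the right arm, chrVI:252001-259000 around ARS609 and chrVI:261001-270000 with ARS610 had 6 bins each and were parted by 2 kb. At ARS609 mean r at 30 and 35 min was 0.994 and 1.02 with SSDDCS against 0.905 and 0.894 without. The ARS610 segment was lower in all 4 strains, at 0.975 and 0.985 with and 0.851 and 0.873 without.

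With the values as deposited, the segment with the largest difference among the 10 at 30 and 35 min was chrVIII:5001-13000, with 7 bins, which holds ARS801 and ARS802. Its difference was 0.152 (SD over bins 0.0612) in the *ars1008∆ ars1009∆* background and 0.177 (SD 0.0743) in the other. With the divided values its difference was 0.126 and 0.117, and in the *ars816∆ ars818∆* background the segments chrXIV:16001-37000 (0.137), chrX:26001-36000 (0.130) and chrX:715001-729000 (0.124) were above it. In the *ars1008∆ ars1009∆* background the divided values of those segments were 0.0836, 0.0425 and 0.0245 in the same order, against 0.115, 0.0859 and 0.0653 as deposited. The mean Trep of chrVIII:5001-13000 moved from 32.1 to 14.1 min and from 30.3 to 17.7 min. In *sml1∆ SSDDCS ars1008∆ ars1009∆* its mean r was 0.993 at 5 min, 1.0505 at 15 min and 1.12 at 20 min, and in *sml1∆ ars1008∆ ars1009∆* 0.951, 0.969 and 0.802. ARS801 is annotated as putative, as is ARS1102 in the segment chrXI:5001-15000, where 7 bins had mean r of 1.03 and 1.01 with SSDDCS against 0.937 and 0.917 without.

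The other 2 had no annotated origin within 2 kb. The segment at the left end of XV, chrXV:2001-15000 with 11 bins, had ARS1531 as its nearest annotated origin, 27.2 kb from its centre, and held *BDS1* (a sulfatase). Its mean r at 30 and 35 min was 1.04 and 1.03 with SSDDCS against 0.963 and 0.908 without, and its mean Trep was 13.7 and 19.0 min with SSDDCS. chrVII:26001-35000, with 6 bins, lay 33.9 kb from ARS702, and its mean r was 1.00 and 1.06 with SSDDCS against 0.904 and 0.911 without. Its mean Trep was 16.3 and 18.7 min with SSDDCS. The early level with SSDDCS was part of the rule, so these times are a description.

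**Figure D5:**
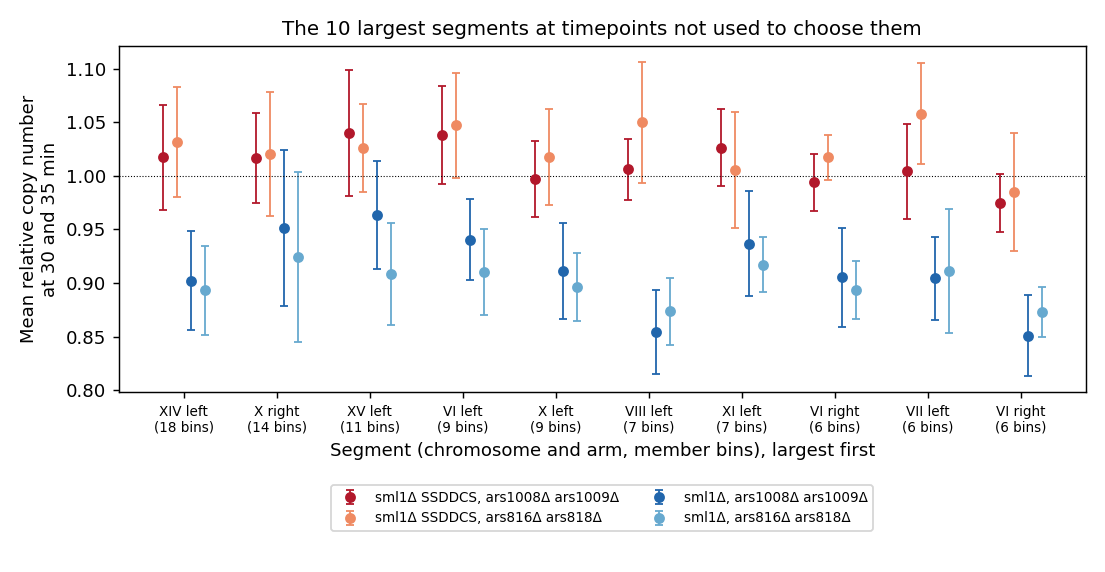
Mean relative copy number at 30 and 35 min in the 10 longest segments, 1 point per strain, with bars for the SD over the bins of the segment; these timepoints were not used to choose the bins. In all 10 segments both strains with SSDDCS (red and orange) lie above both without (blue).

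Of 334 annotated origins with an eligible bin within 2 kb, 41 (12.3%) had one of the 453 bins there. Of the 453 bins, 11.5% lay within 2 kb of an origin, as did 11.6% of all eligible bins and 1.13% of the bins that stayed late. Among origins known from textbooks as late or dormant, this held for ARS609 and for ARS603, in 1 of its 5 bins, out of 9 found. The silent-locus origins ARS301, ARS302, ARS303 and ARS320 near HML on the left arm of III, inactive at their native site, had none. ARS317 and ARS318, beside *HMRA2* and *HMRA1* at HMR on the right arm of III, were not on that list and did. Within 2 kb, 2 of 3 late bins at ARS317 and 3 of 4 at ARS318 were among the 453, in windows that overlap. No eligible bin within 2 kb of ARS302, ARS303 or ARS320 was late by the rule, so none could be chosen. Trep with SSDDCS was 16.9 and 25.6 min in the 1 eligible bin near ARS301, which stayed late. The 6 early origins found (ARS305, ARS306, ARS307, ARS606, ARS607 and ARS815) had no late bin within 2 kb and so could have none of the 453. Around ARS305, mean Trep without SSDDCS was 13.3 and 17.8 min and with SSDDCS 11.6 and 16.1 min, an advance of 1.74 and 1.72 min, against 14.7 and 10.8 min around ARS609.

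The median GC content of the 453 bins was 38.7% (SD over bins 3.11), against 37.7% (SD 3.29) in the bins that stayed late and 37.9% (SD 3.30) in all eligible bins. Farther than 50 kb from an end it was 39.1%, against 37.8% in the bins that stayed late and 37.9% in all eligible bins there. A match to the full ARS consensus sequence, on either strand, was present in 5.52% of the 453 bins, 5.47% of the bins that stayed late and 6.19% of all. The forkhead core GTAAACA, sought on both strands and free to overlap that consensus, was in 17.9%, 16.6% and 15.9%. Long terminal repeats or mobile elements overlapped 1.32%, 1.22% and 2.52%.

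The bins held the midpoints of 214 genes, 208 of them protein-coding, out of 5958 in eligible bins (3.59%), and 83 of the 214 lay within 50 kb of an end. Of the gene groups examined, the 5 eligible genes of the over-expressed factors, the 8 core histone genes, the 7 galactose genes and the 2 eligible flocculins had no member. Of the 10 replication timing regulators 1 (*RPD3*) had its midpoint in these bins, of 21 meiotic genes 1 (*HFM1*, a meiotic helicase, in the segment on the left arm of VII), of 9 thiamine genes 1 (*THI72*, a transporter) and of 8 hexose transporters 2 (*HXT8* and *HXT14*). Counts of 0 to 2 per group leave nothing to read against the 3.59% of all genes. The *HXT8* bin had Trep of 33.8 and 27.8 min without SSDDCS and of 11.5 and 16.7 min with it. The *RPD3* bin moved from 32.1 to 17.6 min and from 30.5 to 20.4 min.

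The extreme among the 453 was an isolated bin on chromosome XII, chrXII:459001-460000, which lies at the ribosomal DNA and had the largest difference at 30 and 35 min (0.476 and 0.448). Its mean r over 5 and 60 min was 1.28 and 1.03 with SSDDCS against 0.837 and 0.774 without, and it did not meet the rule with the divided values. At the other extreme, chrXVI:744001-745000 met the rule and yet was lower with SSDDCS at 30 and 35 min in both backgrounds, by -0.108 and -0.0776.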

How the data were processed

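Per the file headers and the labels, the authors aligned reads of each timepoint to sacCer3 (Bowtie2 2.3.4, SAMtools 1.7.2, bedtools 2.26.0 in the submitters' notes) and deposited, per 1-kb bin, the ratio of replicating to G1 reads together with a bulk ratio per sample. Each of the 44 samples with a file held 11312 to 11328 bins. Read counts and the 4 G1 samples were not analysed here, so the depth is unknown and no counting interval is given. Bin ends lay within the R64 chromosomes, whose RefSeq annotation gave origins and genes.

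From the deposited ratios, r was the ratio over the bulk ratio. Trep came from a logistic fit from 1 to 2 copies, tested on simulated data. The simulated curves ran from 1 to 2 copies with no offset per bin, so they do not test Trep under the offset seen at 5 and 60 min. Samples were grouped by strain from the labels, and contrasts were made within a background. The exact permutation test ran over 4 strains; shares over bins carry no test. The 10 segments with most bins were named, with origins within 2 kb, genes with their midpoint in the 5 longest, and genes of listed groups. The bins, lists and thresholds were chosen with earlier results of these data known. Division by each strain's mean at 5 and 60 min, and leaving out 1 library, were added after seeing the data. The alternatives tried concerned percentiles, thresholds, scaling, fit and timepoints. Python 3.11.15, numpy 2.4.6 and pandas 2.3.3 were used.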

Additional observations from a re-analysis of the deposited data

How the results depend on the processing

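With 1 time course per strain, the error between cultures of a strain is unknown, and the exact permutation test over 2 strains against 2 cannot go below 0.333. Of 85 alternative values for the results on the whole set, 70 stayed within the SD over single bins, the counting interval of a share or 1.5 times the count. These limits are wide. The SD over bins is not the error of their median, and neighbouring bins are not independent. The fall from 0.0962 to 0.0543 on division in the *ars1008∆ ars1009∆* background counts as within them, so the 70 do not show stability. The number of bins was 292 at the 20th percentile, 1022 with the early threshold lowered to 0.95 and 186 with it raised by as much. With the raised threshold, 17.5% and 17.9% of bins repeated across backgrounds. The advance in Trep over the genome median was 7.92 and 6.005 min. At 10 min the difference in relative copy number was 0.0292 in the *ars1008∆ ars1009∆* background and 0.0364 in the *ars816∆ ars818∆* background, against 0.0962 and 0.118 at 30 and 35 min. Bins advanced by over 10 min beyond the genome median numbered 132 and 58, and with division by the 5 and 60 min mean 158 were advanced by over 5 min in the *ars816∆ ars818∆* background. The share of all eligible bins at these settings is not given here, so nothing is read from these counts. The share near ends was 28.7% within 30 kb, 28.6% with 1 value per segment and 49.7% with division. Genes with any overlap numbered 426.

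Among the 10 named segments 5 differences turned sign at 10 min, before most of S-phase: in the *ars816∆ ars818∆* background chrX:715001-729000 (-0.0127), chrX:26001-36000 (-0.00043), chrVI:252001-259000 (-0.00655) and chrVI:261001-270000 (-0.0162), and in the *ars1008∆ ars1009∆* background chrVI:261001-270000 (-0.0192). The cause was not tested. No analysis paired by replicate number was made, since the labels give no such numbers. The strains are paired by background, and the contrasts within each background are those given in the report.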
